A study of Mus musculus with 2 samples.

Results

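Melanoma cells were found among sorted T cells and were taken as barcodes rich in pigment transcripts. The rule kept barcodes with at least 200 detected mouse genes and under 5% mitochondrial UMIs (unique molecular identifiers, each counting 1 captured transcript). It then took those with at least 20 UMIs summed over *Pmel*, *Mlana*, *Dct* and *Tyrp1* and 0 UMIs of *Cd3d*, *Cd3e* and *Cd3g*, which encode the CD3 chains of the T cell receptor complex. It found 63 barcodes among 9844 that passed the quality limits (0.640%), of 14035 deposited. They were compared with 9098 T cells, which had at least 1 CD3 UMI and fewer than 20 UMIs of the pigment genes. The members were chosen by the measured UMIs of these 7 genes, so every gene ratio below is a description without a test.

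The study grew B16 melanoma, a pigmented C57BL/6 mouse line, and its B16–IL-33 derivative, engineered to overexpress the secreted form of the alarmin IL-33, as intradermal tumors from 100000 cells. On day 9 the tumor suspensions were stained with hashtag antibodies, T cells carrying TCR-β were sorted and pooled, and the 5′ ends of transcripts were sequenced as 1 gene expression library with matched hashtag and TCR libraries. The mice were untreated, and those the study names without an engineered allele were C57BL/6J. The sources used here do not give the age of the mice or the number per tumor. The melanoma cells are thus cells that remained after a gate for T cells, and both tumors are mixed in 1 pool without replicates.

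Melanocytes make melanin in melanosomes, organelles related to lysosomes. *Pmel* forms the fibrils on which the pigment is laid down, *Mlana* is a small melanosomal protein, and *Tyr*, *Tyrp1* and *Dct* are the tyrosinase family enzymes of melanin synthesis. MITF, together with SOX10 and PAX3, drives this program and binds E-box motifs near the start of many pigment genes. The same proteins are antigens of B16, which CD8+ T cells see as peptides on MHC class I. Class I molecules consist of a heavy chain (*H2-K1* and *H2-D1* in these mice) with *B2m*, and peptides are cut by the proteasome and carried by *Tap1* and *Tap2*. Interferon raises much of this pathway, and B16 is known for low class I at baseline.

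The promoters of *Dct*, *Tyrp1*, *Tyr*, *Slc24a5* and *Tspan10* are shown because their genes define or mark these cells, and that of *B2m* as a class I gene. Only promoters that hold the motif marked in them are shown, so they do not stand for their gene lists. Each runs 5′ to 3′ in the direction of its gene, from 250 bases before to 50 bases after the transcript start in RefSeq (GRCm38.p6). Capitals mark TCATGTG, an extended E-box of the kind MITF binds, or its complement CACATGA. In the last sequence they mark GAAA, any 2 bases and GAAA again, a form of the element bound by interferon regulatory factors.
Dct (chr14:118052197-118052496, minus strand): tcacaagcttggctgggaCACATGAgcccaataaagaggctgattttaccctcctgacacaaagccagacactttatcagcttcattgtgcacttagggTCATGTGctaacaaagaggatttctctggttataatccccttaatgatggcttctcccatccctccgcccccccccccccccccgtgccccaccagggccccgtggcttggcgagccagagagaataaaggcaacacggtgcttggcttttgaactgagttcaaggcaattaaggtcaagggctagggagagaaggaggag
Tyrp1 (chr4:80833963-80834262, plus strand): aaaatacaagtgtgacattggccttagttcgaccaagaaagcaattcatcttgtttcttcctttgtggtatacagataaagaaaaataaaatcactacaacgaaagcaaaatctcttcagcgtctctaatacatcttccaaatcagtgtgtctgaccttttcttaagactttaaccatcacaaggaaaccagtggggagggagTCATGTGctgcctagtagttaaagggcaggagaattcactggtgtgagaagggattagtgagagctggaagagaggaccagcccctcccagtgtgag
Tyr (chr7:87493463-87493762, minus strand): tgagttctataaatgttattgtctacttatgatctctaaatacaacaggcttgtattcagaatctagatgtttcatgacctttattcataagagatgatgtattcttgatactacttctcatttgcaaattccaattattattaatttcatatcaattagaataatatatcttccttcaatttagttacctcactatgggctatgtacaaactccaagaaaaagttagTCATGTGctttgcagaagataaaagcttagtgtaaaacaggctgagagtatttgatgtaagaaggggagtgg
Slc24a5 (chr2:125067877-125068176, plus strand): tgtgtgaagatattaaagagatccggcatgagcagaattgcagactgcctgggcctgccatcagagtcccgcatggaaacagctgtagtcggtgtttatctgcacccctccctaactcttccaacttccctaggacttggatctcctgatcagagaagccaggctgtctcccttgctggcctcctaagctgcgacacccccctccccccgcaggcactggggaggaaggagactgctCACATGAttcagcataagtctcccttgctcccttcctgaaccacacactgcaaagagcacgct
Tspan10 (chr11:120442381-120442680, plus strand): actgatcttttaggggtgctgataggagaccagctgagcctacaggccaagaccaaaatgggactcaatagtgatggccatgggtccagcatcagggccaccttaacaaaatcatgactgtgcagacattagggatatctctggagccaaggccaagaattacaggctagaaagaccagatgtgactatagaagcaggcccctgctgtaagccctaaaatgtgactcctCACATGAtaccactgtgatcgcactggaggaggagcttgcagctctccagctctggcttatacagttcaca
B2m (chr2:122147437-122147736, plus strand): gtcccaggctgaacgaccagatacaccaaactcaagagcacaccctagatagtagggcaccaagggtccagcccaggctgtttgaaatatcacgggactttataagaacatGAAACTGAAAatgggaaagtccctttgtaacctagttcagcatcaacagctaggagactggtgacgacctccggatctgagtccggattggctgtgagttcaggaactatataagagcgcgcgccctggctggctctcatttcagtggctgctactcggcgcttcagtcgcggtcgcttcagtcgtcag

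TCATGTG on either strand was found in 7 of the 27 promoters (25.9%) that RefSeq gave for 20 of the 31 pigment and melanocyte lineage genes, against 1239 of 32851 promoters of all genes (3.77%). The genes holding it were *Dct*, with 2 copies, *Mc1r*, *Slc24a5*, *Trpm1*, *Tspan10*, *Tyr* and *Tyrp1*. The interferon-type motif, searched on both strands, was found in 5 of 27 promoters of class I genes (18.5%) and in 9 of 16 promoters of interferon-induced genes (56.3%), against 1131 of all promoters (3.44%). None of the 27 pigment and lineage promoters held it. A match describes these letters in this window and does not show that a factor bound there.

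Melanoma cells were barcodes with many UMIs. They held 2584577 UMIs in all, from 2132 to 78650 per cell with a median of 43350, and a median of 5675 detected genes. T cells had a median of 2682.5 UMIs and 1112 genes, so that the median melanoma cell was 16.2 times as deep. The rule sets a minimum number of pigment UMIs whatever the depth of a barcode, so shallow melanoma cells can be missed. The rule itself can therefore raise this depth, and by how much was not tested. Of the 63 cells, 60 exceeded the 2500 detected genes that the study set as its upper limit. Only 3 cells had under 10000 UMIs. The mitochondrial share had a median of 3.12% against 2.16% in T cells, and 10 further barcodes rich in pigment transcripts and without CD3 were left out because theirs was 5% or more.

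The 4 genes of the rule were summed to between 22 and 1078 UMIs per melanoma cell, with a median of 439 or 1.07% of the cell's UMIs. Just inside the threshold lay cells with 22, 31, 124, 134 and 141 such UMIs, and just outside it barcodes without CD3 with 11, 9, 8, 8 and 6. The cells therefore stood well away from the threshold, except for the lowest pair. Among T cells 8728 (95.9%) had 0 of these UMIs and the highest had 7. Summed over all cells and scaled to 1000000 UMIs per group (CPM), *Dct* reached 6196 in melanoma cells and 6.60 in T cells. *Pmel* reached 1930 and 1.90, *Tyrp1* 1598 and 1.49, and *Mlana* 1485 and 2.19 CPM in the same order. *Pmel* was seen in 62 of 63 cells and the other 3 genes in all 63.

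**Figure D1:**
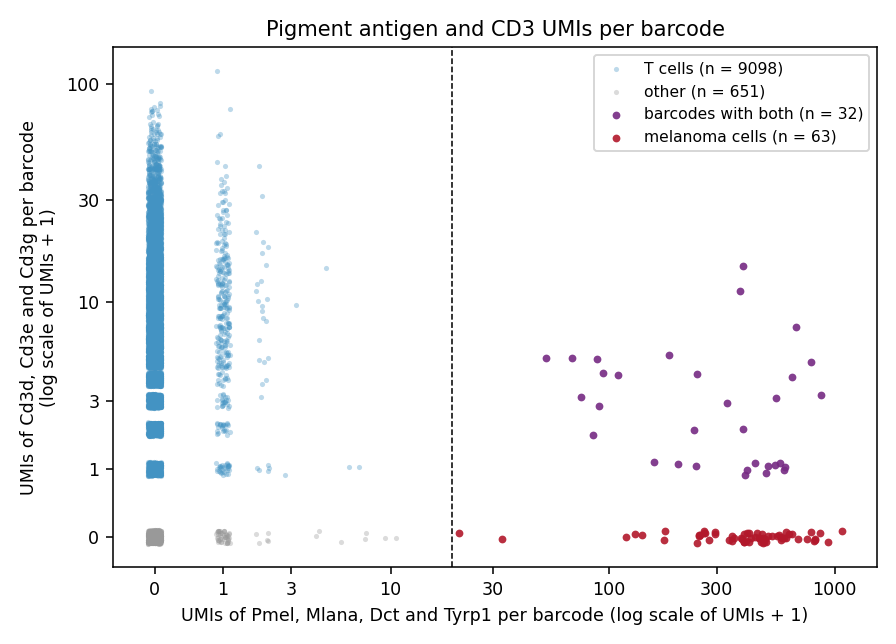
UMIs of the 4 pigment genes (horizontal) and of the 3 CD3 genes (vertical) in each of the 9844 barcodes kept, both on a log scale of UMIs + 1 with slight random displacement; the dashed line marks the threshold of 20. Melanoma cells (red) lie on the 0 line of CD3 at 22 to 1078 pigment UMIs, 32 barcodes with both kinds of transcript (purple) lie above them, and T cells (blue) reach at most 7 pigment UMIs.

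A further 32 barcodes held as many pigment transcripts together with CD3. Their CD3 UMIs ran from 1 to 16 with a median of 3, and 12 of them had a single CD3 UMI. Their depth was like that of the melanoma cells, with a median of 42673.5 UMIs and 381 pigment UMIs. These barcodes were kept out of both groups. No doublet caller was run, and cells joined with another cell that left no CD3 UMI cannot be recognized by this rule.

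The TCR and hashtag libraries were made apart from the gene counts that the rule used, but requiring 0 CD3 UMIs can also remove barcodes with a TCR. The TCR shares are therefore given as a description. Without the limit on CD3, 10.5% of the 95 barcodes rich in pigment transcripts were listed in the TCR table. None of the 63 melanoma cells was listed in the TCR table, which allows a share of up to 4.76%, with an exact upper end of 5.69%. By contrast, 5967 T cells (65.6%; 64.6 to 66.6%) and 10 of the 32 mixed barcodes (31.3%; 16.1 to 50.01%) were listed. Ranges after a share or a CPM value are exact 95% intervals, and like the limits at a count of 0 they cover counting error only. The hashtag library listed 33 melanoma cells (52.4%; 39.4 to 65.1%) and 8982 T cells (98.7%; 98.5 to 98.9%). Of those 33, 0 had a UMI of any of the 4 tags, which allows up to 9.09%, with an exact upper end of 10.6%. Among the T cells listed 990 had one (11.02%; 10.4 to 11.7%), and the exact intervals overlap. UMIs that matched no tag had a median of 335 in the melanoma cells listed and 1358 in the T cells listed. No melanoma cell could therefore be assigned to the B16 or the B16–IL-33 tumor, and no comparison between the tumors could be made.

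*Il33* was not seen in the melanoma cells. The gene, which encodes the alarmin itself, lies on chromosome 19 at 29925114 to 29960718 (GRCm38, plus strand). It had 0 of 2584577 UMIs in the 63 cells. Read as a count of 3, this allows up to 1.16 CPM and up to 4.76% of cells with a UMI. The exact upper ends are 1.43 CPM and 5.69%. In T cells 17 UMIs fell in 16 barcodes, or 0.497 CPM (0.289 to 0.795). The limit in melanoma cells lies above the T cell level, so that a lower level in melanoma cells could not have been detected at this depth. A count of 3 would put the ratio to T cells at 2.34, and the exact upper end for the count of 0 is 3.21. Taking all 109 barcodes with at least 20 pigment UMIs, whatever their mitochondrial share or CD3, gave 0 *Il33* UMIs of 4133746. The whole library held 21 *Il33* UMIs, and the barcode with most had 2. These counts cover reads assigned to the *Il33* gene in the reference. Whether reads of the introduced sequence would be assigned to it was not tested, and the number of B16–IL-33 cells among the 63 is unknown. *Il1rl1*, which encodes the IL-33 receptor, had 1 UMI in melanoma cells, 0.387 CPM against 51.2 in T cells, and its partner *Il1rap* had 10 UMIs, 3.87 against 3.68 CPM.

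*Egfr*, the receptor for amphiregulin, had 0 UMIs in melanoma cells and 0 in T cells. *Areg*, which encodes amphiregulin, had 2 UMIs in 1 melanoma cell, or 0.774 CPM against 338 CPM in T cells. The related receptor gene *Erbb3*, a neural crest gene, was seen in 30 of 63 cells at 18.6 CPM, against 3.21 in T cells (ratio 5.78; 4.03 to 8.18). *Erbb2* had 10 UMIs in 10 cells, and *Erbb4* and the ligands *Ereg*, *Egf*, *Tgfa*, *Epgn* and *Nrg1* had 0. Of the 14 genes of the EGF family, 2 could be compared, *Erbb3* and *Areg*.

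Across the genome, 8843 genes reached 10 CPM in either group and were compared. Of these, 2480 (28.0%) were at least 2-fold higher in melanoma cells and 2131 (24.1%) at least 2-fold lower, and the median log2 ratio of all genes compared was 0.18. Counts for gene groups below are read against those shares where they are in CPM. The shares do not apply to counts in UMIs per cell. With median-ratio scaling in place of totals all log2 ratios shifted by 0.25, and 22.7% of genes were higher and 28.2% lower. Genes with fewer than 10 CPM in both groups did not enter these counts, and a gene at 0 was set to 3 UMIs over the group.

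The wider melanocyte program was present as well. Of 27 lineage genes that the rule did not use, 21 could be compared and 20 were at least 2-fold higher in melanoma cells, with a median log2 ratio of 8.21. Each melanoma cell had UMIs of 3 to 22 of these genes, with a median of 18, and 59 cells had 10 or more. As the pigment genes chose the cells, genes of the same program are no independent evidence of identity.

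Among the regulators, *Mitf* (chromosome 6, 97807052 to 98021349), the master regulator of melanocytes, was at 200 CPM against 3.53 in T cells (ratio 56.7; 46.4 to 69.7). It had 0 to 24 UMIs per melanoma cell, with a median of 7. *Sox10* was at 143 against 0.146 CPM, with UMIs in 61 of 63 cells. *Pax3* was at 92.1 against 0.117 CPM, with UMIs in 57. *Sox9*, a neural crest factor, had 20 UMIs in 14 cells.

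Of the genes for pigment synthesis and melanosome chemistry, *Tyr* (chromosome 7, 87424771 to 87493512), the rate-limiting enzyme of melanin synthesis, was at 229 CPM against 0.497 in T cells (ratio 462; 286 to 799), with 0 to 29 UMIs per cell and a median of 9. The transporters *Slc45a2* and *Slc24a5* were at 526 and 371 CPM against 0.672 and 1.198. *Oca2*, a melanosomal channel, was at 45.7 CPM, and *Gpr143*, a melanosomal receptor, had 59 UMIs in 36 melanoma cells and 0 in T cells. *Gpnmb*, a homolog of *Pmel*, was at 1845 against 36.5 CPM and at 739 in 74 C1q-positive barcodes, which are macrophage-rich. *Mc1r*, the receptor for melanocortin, was at 71.6 CPM with UMIs in 52 cells, and *Trpm1*, whose transcript holds a MITF-regulated microRNA, at 269 CPM.

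Of the genes that move melanosomes, *Rab38* was at 372 against 1.26 CPM and *Mlph* at 143 against 0.321. *Rab27a*, the GTPase that ties melanosomes to melanophilin and also serves granule release in T cells, was at 58.0 against 40.8 CPM and was the only gene of the list compared that did not reach 2-fold. *Kit*, *Ednrb*, *Cdh1* and *Bcan* of the same list had 0 UMIs. For *Kit*, the receptor for stem cell factor, this put melanoma cells at least 5.34-fold below the 6.19 CPM of T cells.

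With the rule genes left out and at least 200 UMIs over both groups required, the 15 highest ratios belonged to *Glrb*, *Tspan10*, *Sox10*, *Fbln5*, *Pax3*, *Slc45a2*, *Ptgds*, *Pla2g2e*, *Car14*, *Syt4*, *Tyr*, *Mlph*, *Tinagl1*, *Atp6v0e2* and *Tm4sf1*. *Glrb*, a glycine receptor subunit, was at 123 CPM with UMIs in 58 of 63 melanoma cells and had 2 UMIs in all T cells (ratio 2099; 576 to 17411). *Ptgds*, prostaglandin D synthase, was at 2006 against 2.63 CPM with 2 to 379 UMIs per cell and a median of 70. *Fbln5*, a fibulin of elastic fibers, was at 166 against 0.204 CPM, *Syt4* at 774 against 1.61, and *Pla2g2e*, a secreted phospholipase, at 82.8 against 0.117. Each of the 15 had UMIs in 46 or more of the 63 cells. They met the minimum of 200 UMIs almost wholly through the melanoma cells, so the filter itself favors such wide detection.

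Genes linked to a neural crest or dedifferentiated state of melanoma were split. Of 18, 10 could be compared, 6 were at least 2-fold higher and 2 lower. *Sparc*, a matricellular protein, was at 296 against 5.93 CPM, and *Cyr61*, a YAP/TEAD target, at 61.5 against 0.175. Of the 159 *Cyr61* UMIs, 54.7% lay in 5 cells. *Tead1* was at 20.9 CPM in 33 cells. *Ngfr*, *Pdgfra*, *Sox2*, *Wnt5a*, *Twist1* and *Zeb1* had 0 UMIs. For *Zeb1* melanoma cells were at least 31.2-fold below T cells, while *Zeb2* was at 74.7 against 36.0 CPM (ratio 2.07; 1.77 to 2.41). *Axl* was at 7.74 against 16.5 CPM.

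**Figure D2:**
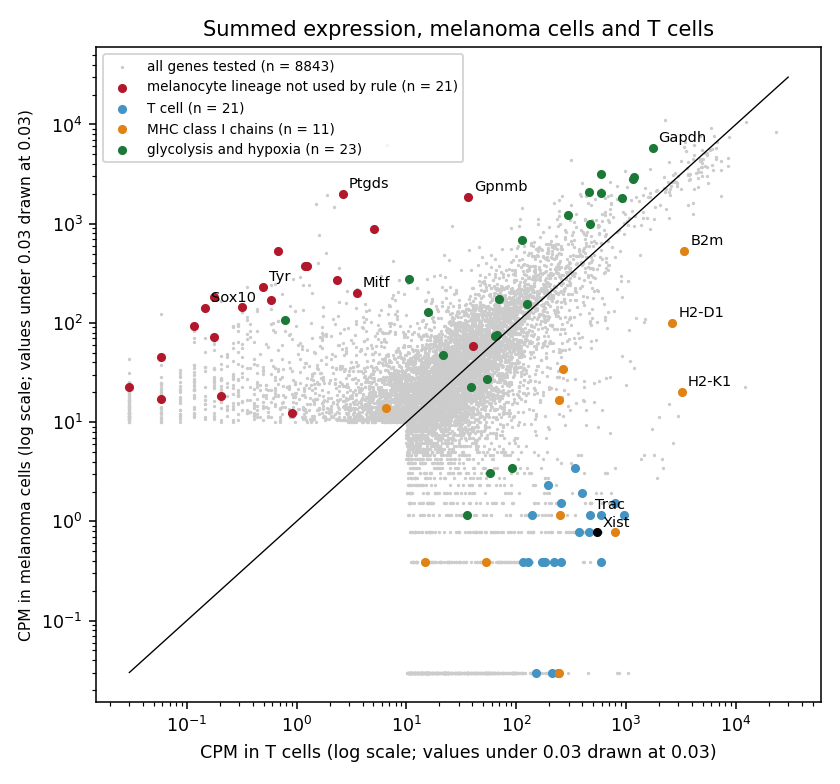
CPM in melanoma cells (vertical) against CPM in T cells (horizontal), both on log scales, for the 8843 genes compared, with values under 0.03 drawn at 0.03; colors mark 4 gene lists and the diagonal marks equal levels. Melanocyte lineage genes lie above the diagonal, T cell genes other than CD3 lie near the bottom, the class I genes *B2m*, *H2-D1* and *H2-K1* lie to the lower right and most glycolysis genes lie a little above the diagonal.

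Class I antigen presentation was low in melanoma cells on the CPM scale. Of 14 genes for class I chains, 11 could be compared, 10 were at least 2-fold lower than in T cells (24.1% of all genes were) and 1 was higher, with a median log2 ratio of -5.24. *H2-K1* (chromosome 17, 33996017 to 34000347), the K heavy chain, was at 20.1 CPM (52 UMIs) against 3211 CPM and was 160-fold lower (122 to 214). Its UMIs per melanoma cell ran from 0 to 8 with a median of 0, and 26 of 63 cells had any. *H2-D1* (chromosome 17, 35262730 to 35267499), the D heavy chain, was at 100 CPM (259 UMIs) against 2651 and was 26.5-fold lower (23.4 to 29.998). It ran from 0 to 14 UMIs per cell with a median of 4, and 54 cells had it. *B2m* (chromosome 2, 122147686 to 122153083), the shared light chain, was at 530 CPM (1371 UMIs) against 3409 and was 6.43-fold lower (6.09 to 6.78), with 0 to 77 UMIs per cell, a median of 17 and UMIs in 61 cells.

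The 3 genes were thus lower in CPM by unequal amounts. Their intervals did not overlap, but these cover counting error only, and 46.2% of the *H2-K1* UMIs lay in 5 cells. The 7 melanoma cells with 0 UMIs of both *H2-K1* and *H2-D1* held 2132 to 58093 UMIs in total. After each cell was thinned to 1500 UMIs, which left out 1627 shallower T cells, *H2-K1* was seen in 3.17% of melanoma cells (0.387 to 11.002%) and 96.3% of T cells (95.8 to 96.7%). Without thinning these shares were 41.3% and 98.0%. The thinned share for *H2-D1* was 12.7% (5.65 to 23.5%) against 95.2% and for *B2m* 47.6% (34.9 to 60.6%) against 98.4%.

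The direction for *B2m* and for several other genes depended on the scale. Melanoma cells held a mean of 41025 UMIs against 3763 in T cells, so that counting UMIs per cell in place of CPM multiplied every ratio by 10.9. Any gene less than 10.9-fold lower in CPM turns higher on that scale, whatever its list. The share of all genes that did so is not given here, so counts in UMIs per cell, here and below, are no result about a list. Of the 10 class I chain genes at least 2-fold lower in CPM, 2 were then higher in melanoma cells and 8 lower. *B2m* was at 21.8 against 12.8 UMIs per cell and *H2-T22* at 1.40 against 1.004. *H2-D1* remained lower, at 4.11 against 9.97 UMIs per cell, and so did *H2-K1*, at 0.825 against 12.1.

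T cell transcripts in melanoma barcodes gave a background level for these values. The 21 T cell genes other than CD3 summed to 51 UMIs in the 63 cells, which was 0.272% (0.203 to 0.358%) of their CPM in T cells, with a median gene at 0.207% and the highest at 1.19%. *H2-K1* stood at 0.627% of its T cell level (0.468 to 0.822%), within the range of those genes, *H2-D1* at 3.78% and *B2m* at 15.6%, above all of them. As the rule required 0 CD3 UMIs, it can lower this background. The same T cell genes summed to 223 CPM in the 32 barcodes with both kinds of transcript, against 19.7 in melanoma cells. The part of free RNA in the *H2-K1* count was not tested.

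The nonclassical heavy chains were lower as well in CPM. *H2-Q7* had 2 UMIs, 0.774 against 787 CPM, *H2-T23* had 3 UMIs, 1.16 against 250 CPM, and *H2-Q6* had 0 against 248 CPM in T cells, at least 214-fold lower. *H2-T22* was at 34.0 against 267 CPM and *H2-Q4* at 16.6 against 244. Reads of these near-identical genes can be split or lost in counting, so single values of the Q and T genes are uncertain. *Fcgrt*, a class I–like Fc receptor that does not present peptide, was the gene that was higher, at 13.9 against 6.57 CPM (ratio 2.12; 1.45 to 3.02).

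Among 16 genes for peptide supply and loading, 11 were at least 2-fold lower, 2 higher and 3 neither, with a median log2 ratio of -2.64. In UMIs per cell 6 of those 11 were higher in melanoma cells. Among them were *Psmb10* with 1.86 against 0.699 and *Tapbp* with 0.905 against 0.781. The median log2 ratio was then 0.81, but this scale adds 3.45 to the log2 ratio of every gene. Neither value is therefore a result about the list. The peptide transporter genes *Tap1* and *Tap2* were at 12.0 and 8.51 CPM against 244 and 200, and *Tapbp* (tapasin) at 22.1 against 208. Of the immunoproteasome subunits, *Psmb8* had 5 UMIs in 5 cells, 1.93 against 736 CPM, and was 381-fold lower (163 to 1173). *Psmb9* was at 15.5 against 352 CPM and *Psmb10* at 45.3 against 186. *Nlrc5*, the transactivator of class I genes, was at 4.26 against 60.3 CPM. The chaperones *Calr* and *Canx*, which serve all glycoproteins of the endoplasmic reticulum, were the higher genes, at 699 against 276 and 485 against 154 CPM.

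The constitutive proteasome did not share this pattern. Of its 10 genes 0 passed 2-fold in either direction, with a median log2 ratio of 0.40. *Psmb5*, whose place *Psmb8* takes in the immunoproteasome, was at 226 against 170 CPM (ratio 1.33; 1.22 to 1.45). *Psmb6* was at 271 against 184, *Psmb7* at 110 against 79.2 and *Psmb1* at 208 against 345 CPM.

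**Figure D3:**
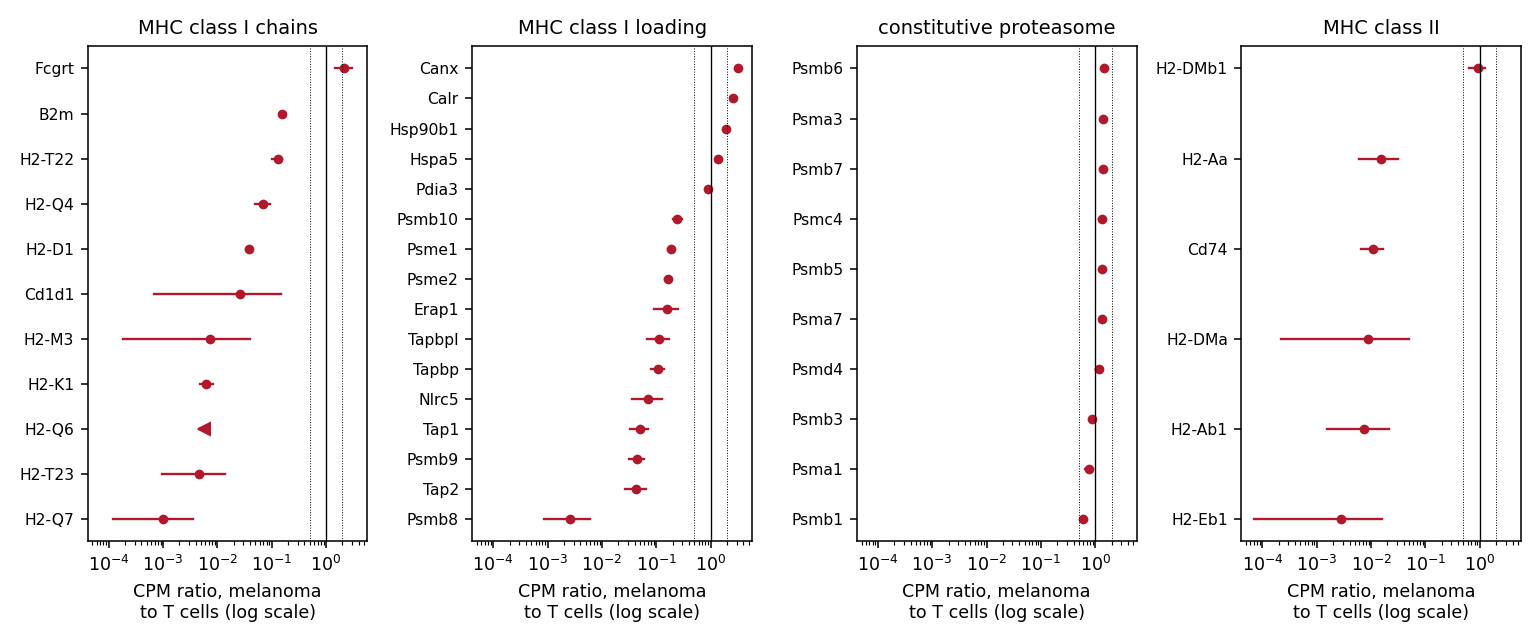
Ratio of CPM in melanoma cells to CPM in T cells (log scale) for the genes compared in 4 antigen presentation lists; lines are exact 95% intervals for counting error, the solid line marks a ratio of 1, dotted lines mark 2-fold, and the triangle is an upper bound for a gene at 0 UMIs. Class I chains other than *Fcgrt* lie left of 2-fold (in UMIs per cell *B2m*, *H2-T22* and 6 of the 11 lower loading genes were higher) and the 10 constitutive proteasome genes lie between the dotted lines.

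Class II genes, which professional antigen-presenting cells use, were near 0. Of 10 genes 6 could be compared and 5 were at least 2-fold lower, also in UMIs per cell, with a median log2 ratio of -6.68 in CPM. The T cell group is no clean reference here, as it held 711 CPM of *Cd74* and 296 CPM of the myeloid gene *Lyz2*. The same limit can apply to the secreted mediators and lysosomal genes below. Those lists summed to 13328 and 20980 CPM in the C1q-positive barcodes, against 4345 and 2718 in T cells. *H2-DMb1* passed 2-fold in neither direction, at 15.5 against 16.9 CPM, and was seen in 24 melanoma cells. Of the 72 class II UMIs in melanoma cells, 27 lay in 1 cell and the next had 7. That cell held 11 UMIs of *Cd74*, 7 of *H2-Aa* and 3 of *H2-Ab1* among 54463 UMIs, together with 461 pigment UMIs and 0 UMIs of *Ptprc*, *Lyz2*, *C1qa* and *Flt3*. Without it the other members held 45 class II UMIs, and *H2-Aa* and *H2-Ab1* were at 0.

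Interferon receptor and signaling genes were mostly lower, with 13 of 14 at least 2-fold lower and a median log2 ratio of -3.24. In UMIs per cell 6 of these 13 were higher in melanoma cells. *Ifngr1*, the ligand-binding chain of the interferon-γ receptor, was at 15.9 against 512 CPM (32.3-fold lower; 23.8 to 45.0). Its partner chain *Ifngr2* was higher, at 37.5 against 13.7 CPM (ratio 2.73; 2.17 to 3.41). *Irf1* was at 3.48 against 168 CPM, and *Jak1* at 26.7 against 292. Of 18 interferon-induced genes compared, 16 were lower, with a median log2 ratio of -2.97, and 8 of the 16 were higher in UMIs per cell. The exceptions were *Bst2*, which tethers virions at the membrane, at 254 against 268 CPM with UMIs in 59 cells, and *Ifit2*, at 10.8 against 19.3.

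Interferon-induced transcripts were uneven among the melanoma cells. *Isg15*, a ubiquitin-like protein, ran from 0 to 39 UMIs with a median of 0. It was seen in 28 of 63 cells, and 66.1% of its 171 UMIs lay in 5 of them. *Igtp*, an interferon-γ–induced GTPase, was seen in 8 cells, with 87.0% of its 23 UMIs in 5. *Rsad2* was seen in 15 cells and *Cxcl10*, a chemokine for CXCR3+ T cells, in 13. Over the whole list, melanoma cells ran from 0 to 2593 CPM with a median of 242, and 2 cells had 0 UMIs. Among the 60 cells with at least 10000 UMIs, the summed CPM of class I chains went with that of interferon-induced genes (Spearman's rho 0.61, Pearson's r 0.63). Class I chains went less with the loading list (0.25 and 0.25) and hardly with total UMIs (0.07 and -0.04). These cells share 1 library, and each pair of sums shares the same total, so the coefficients only describe these cells.

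**Figure D4:**
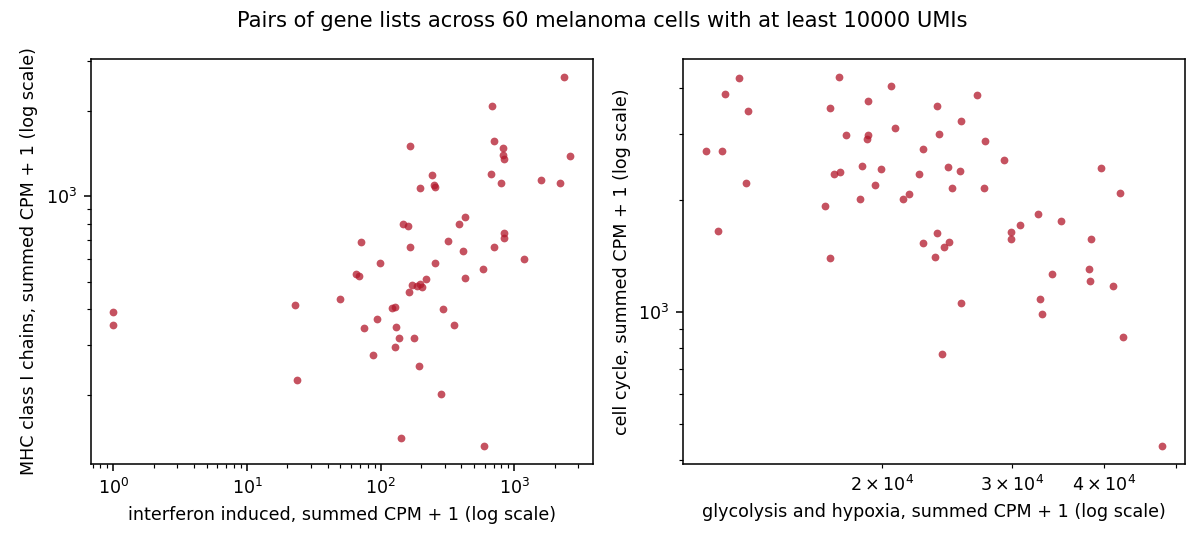
Summed CPM + 1 of 2 pairs of gene lists in the 60 melanoma cells with at least 10000 UMIs, all axes on log scales; each point is 1 cell. Cells with more interferon-induced transcripts tend to hold more of class I chains on the left (rho 0.61), and cells with more glycolysis and hypoxia transcripts tend to hold fewer of the cell cycle on the right (rho -0.54).

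Most ligands for T and NK cell receptors were lower or not seen in melanoma cells. Of 26 genes 17 could be compared, 13 were lower (3 of them higher in UMIs per cell) and 2 higher, and 14 had 0 UMIs. *Cd274*, which encodes PD-L1, had 7 UMIs in 6 cells, 2.71 against 40.4 CPM in T cells. *Cd80*, *Cd86*, *Fasl*, *Icam1*, *Nt5e* and *Entpd1* were at 0. The higher genes were *Cd276*, which encodes B7-H3, at 14.7 against 0.409 CPM in 24 cells, and *Nectin2*, a ligand of TIGIT and DNAM-1, at 12.8 against 0.380 CPM in 23 cells. *Pvr*, another ligand of these receptors, was at 20.5 against 15.2 CPM (ratio 1.34; 0.994 to 1.79). *Lgals1*, galectin-1, was at 2279 against 2203 CPM and was seen in all 63 cells. *Lgals3* was seen in 18 cells, with 61.5% of its 174 UMIs in 5. Of the NKG2D ligands, *Raet1d* had 16 UMIs in 14 cells and *H60b*, *H60c* and *Ulbp1* had 0.

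Secreted mediators showed 2 genes higher and 9 lower (2 of them higher in UMIs per cell) among 11 compared, with 15 of 26 at 0 UMIs. *Mif*, macrophage migration inhibitory factor, was at 3390 against 983 CPM (ratio 3.45; 3.37 to 3.53), with 3 to 338 UMIs per cell and a median of 136. *Vegfa*, the angiogenic factor, was at 82.8 against 7.07 CPM (ratio 11.7; 9.70 to 14.1) with UMIs in 51 cells. *Cxcl1*, *Cxcl2*, *Ccl2*, *Ccl7*, *Il6*, *Il1b*, *Csf2* and *Ptgs2* had 0 UMIs. *Tgfb1* was at 7.35 against 153 CPM, and *Spp1*, osteopontin, at 73.9 against 194 CPM with 55.0% of its UMIs in 5 cells.

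Cell cycle transcripts were found in all 63 melanoma cells, at 435 to 4269 CPM for the summed list, while single genes such as *Mki67* were found in part of them. Of 24 cell cycle genes compared, 14 were at least 2-fold higher and 1 lower, with a median log2 ratio of 1.06 against 0.18 for all genes. With median-ratio scaling that median would be 0.25 lower. *Ccnd1*, cyclin D1, was at 96.7 against 7.68 CPM (ratio 12.6; 10.5 to 15.03), and its kinase *Cdk4* at 328 against 97.5 CPM. *Cdk6*, the other cyclin D kinase, was the lower gene, at 12.0 against 75.2 CPM. *Mki67*, the proliferation antigen, was at 92.1 against 79.4 CPM (ratio 1.16; 1.01 to 1.32) and ran from 0 to 23 UMIs with 31 of 63 cells above 0. After thinning to 1500 UMIs it was seen in 9.52% of melanoma cells (3.58 to 19.6%) and 5.66% of T cells (5.15 to 6.21%), intervals that overlap. Without thinning these shares were 49.2% and 11.4%. In 19 cells *Mki67*, *Top2a* and *Cdk1* were all at 0.

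Most brakes of the cycle passed 2-fold in neither direction. Of 11 genes 8 could be compared, 1 was higher, 2 were lower and 5 neither, with a median log2 ratio of -0.40. Over all genes compared, 28.0% were higher and 24.1% lower. *Cdkn2a*, the p16 and p19Arf locus, was too low in both groups to be among those compared. It had 0 UMIs against 6.48 CPM in T cells, at least 5.59-fold lower, and its neighbor *Cdkn2b* had 0. *Cdkn1a*, which encodes p21, was at 220 against 112 CPM (ratio 1.97; 1.801 to 2.15), with 0 to 56 UMIs per cell. *Trp53* was at 49.1 against 77.6 CPM, and *Nf1* was higher at 51.1 against 12.8 (ratio 4.001; 3.27 to 4.87).

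Glycolysis genes were mostly higher in melanoma cells. Of 23 glycolysis and hypoxia genes compared, 14 were at least 2-fold higher and 3 lower, with a median log2 ratio of 1.27. *Gapdh* was at 5760 against 1750 CPM, *Pgk1* at 3169 against 587 (ratio 5.40; 5.26 to 5.54), *Tpi1* at 2096 against 459 and *Hk2* at 128 against 15.8. *Ldhb* was 26.2 times as high (23.1 to 29.9), at 277 against 10.6 CPM, and *Ldha* 2.50 times (2.44 to 2.57). *Car9*, the hypoxia-induced carbonic anhydrase, was at 107 against 0.789 CPM (ratio 136; 91.4 to 210) and was seen in 37 cells, with 0 to 26 UMIs. *Bnip3*, another gene induced by hypoxia, was at 677 against 114 CPM. The lower genes were *Slc2a3*, *Slc16a3* and *Egln3*. Over the 60 deeper cells the summed cell cycle list went against the glycolysis and hypoxia list (rho -0.54, r -0.57), while its rho with total UMIs was 0.28.

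Lysosomal genes differed less, with 9 of 20 higher, 1 lower and a median log2 ratio of 0.62. *Cd63*, a tetraspanin that sorts *Pmel* in melanosomes, was at 949 against 26.1 CPM (ratio 36.4; 33.7 to 39.4). *Apoe*, which also takes part in *Pmel* fibril formation, was at 402 against 53.1 CPM, *Gaa* at 63.8 against 5.93 and *Atp6v0c*, a proton pump subunit, at 1188 against 244. *Ctsb* and *Psap* were at 237 against 398 and 226 against 377 CPM.

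**Figure D5:**
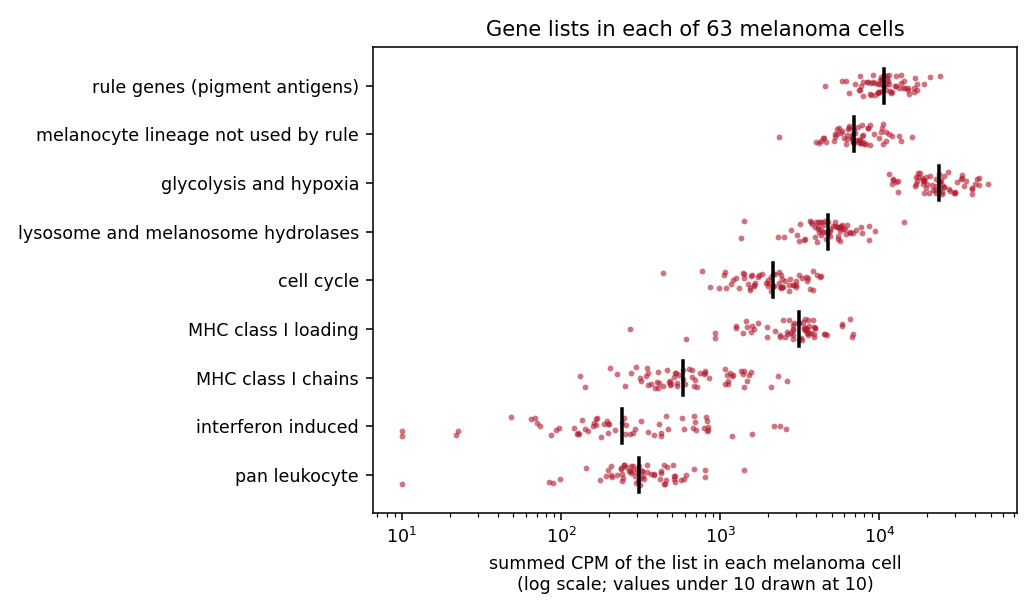
Summed CPM of 9 gene lists in each of the 63 melanoma cells (log scale, values under 10 drawn at 10); points are cells with random vertical displacement and bars are medians. The interferon-induced list spreads from 0 to 2593 CPM, while the glycolysis and hypoxia list stays between 11540 and 47950 CPM.

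Transcripts of other cell types were scarce in the melanoma cells. All 24 T cell genes and all 10 pan-leukocyte genes were at least 2-fold lower, while 2 of the pan-leukocyte genes were higher in UMIs per cell. The 3 CD3 genes were lower by the rule itself, which can also lower genes expressed together with them. The pan-leukocyte list summed to 340 CPM in melanoma cells, 600 in the 32 barcodes with both kinds of transcript and 11077 in T cells. *Ptprc*, which encodes CD45, had 8 UMIs in 6 cells. Among the pan-leukocyte genes *Arhgdib* stood apart, at 297 against 897 CPM with UMIs in 62 cells. Of 16 macrophage and monocyte genes 12 had 0 UMIs, *Lyz2*, *Csf1r* and *Tyrobp* among them. Lists of erythroid, B cell, NK cell and neutrophil or mast cell genes summed to 0, 2.32, 0.387 and 0.387 CPM. Dendritic cell, fibroblast and keratinocyte lists summed to 12.0, 3.48 and 1.16 CPM. *Egfl7*, listed for endothelium, was at 42.9 CPM in 45 cells, while *Cdh5*, *Kdr*, *Cldn5* and *Tie1* of the same list were at 0.

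*Xist*, the noncoding RNA of the inactive X chromosome (X, 103460366 to 103483254), had 2 UMIs in 1 melanoma cell, 0.774 CPM against 543 in T cells, and was 702-fold lower (194 to 5794). The Y-linked genes *Ddx3y*, *Eif2s3y*, *Kdm5d* and *Uty* had 0 UMIs in both groups. The 387 compared genes at 0 UMIs in melanoma cells were ranked at their upper limit, and their true ratios may be lower than those named here. In this ranking the lowest 15 ratios over the genome were otherwise those of *Cd2*, *Selplg*, *Gimap3*, *Cd53*, *H2-Q7*, *Gzmb*, *Ltb*, *Ptprcap*, *Ctla4*, *Tagln2*, *Ly6e*, *Ms4a4b*, *Cd5* and *AW112010*, mostly leukocyte or interferon-induced genes. Each of these had between 1 and 9 UMIs in the melanoma cells.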

How the data were processed

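Gene expression and hashtag values were deposited by the authors as raw counts of UMIs per feature and barcode, before their filters on cells. Alignment was to a reference holding both the human and the mouse (mm10) genome, by Cell Ranger, version 3.1.0 by the matrix header and 6.1.1 by the submitters' processing notes. The TCR table, of which only the listed barcodes were used, holds Cell Ranger's filtered contigs.

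The members, gene lists and comparisons were chosen with earlier results of these data known. The study's lower limit of 200 genes and its limit of 5% mitochondrial UMIs were kept, and its upper limit of 2500 genes was an alternative. Mouse UMIs were summed over cells and divided by the group total (CPM). Genes with at least 10 CPM in either group were compared, and called at 2-fold. Ratios carry exact conditional binomial 95% intervals, CPM exact Poisson and shares exact Clopper-Pearson ones (SciPy 1.17.1, Python 3.11.15). A count of 0 was read as allowing 3 counts. Cells of 1 library are not replicates, so no p-value is given. The T cells together held 34234798 UMIs.

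Any gene of the 29 lists could be named, and beyond them the 15 genes at each end of the ratios, where both groups together had 200 UMIs or more. C1q-positive barcodes had at least 5 UMIs of *C1qa*, *C1qb* and *C1qc*, fewer than 20 of the pigment genes and 0 of CD3. Of 402 genes in the lists, 401 were found. Thinning was a single random draw. The results of some genes are not reported here. Coordinates are those of GENCODE vM21 (GRCm38), in which 30934 of 31053 gene identifiers were found, and promoters those of RefSeq (GRCm38.p6).

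Tested on simulated data for melanoma cells against T cells (8843 genes, 200 changed), intervals covered the simulated ratio in 96.5% of changed genes and in 95.3% of the others, and the direction was right for 100%. The simulated group totals varied by counting error only, for which these intervals are built, so coverage near 95% was fixed in advance. The share with the right direction depends on the levels and fold changes that were simulated. These are not given here, so that share says nothing about genes with few UMIs or about very large ratios. Uneven counts among cells, as seen for *Isg15*, were not simulated, and the intervals do not cover them.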

Additional observations from a re-analysis of the deposited data

Results flagged for a closer look

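UMIs assigned to human genes, which no comparison above used, were found in the melanoma cells. The mouse cells had been aligned to a reference that also holds the human genome, and 354 UMIs of the 63 melanoma cells fell on human genes, or 0.0137% of their UMIs (exact 95% interval 0.0123 to 0.0152%). This exceeds what a count of 0 would allow, but the share was not particular to melanoma cells. T cells had 4872 such UMIs, or 0.0142% (0.0138 to 0.0146%), and the intervals overlap.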

How the results depend on the processing

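Of 138 alternative values, 125 stayed within the interval of the reported value (for a list, that of its median gene), or for counts of genes within 1.5 times of it, and 13 moved, with 0 reversals. Limiting cells to 2500 detected genes, as the study did, left 3 melanoma cells. In these the *Il33* ratio at a count of 3 was 438 instead of 2.34. The median log2 ratios were -0.21 for class I chains, -0.043 for class I loading, 0 for class II and 7.003 for the lineage list, and 223 genes were lower. A gene at 0 in so few UMIs has a limit above many T cell levels and was then set to a log2 ratio of 0. Without a limit on CD3 there were 95 melanoma cells, of which 10.5% were in the TCR table. T cells with a productive contig gave an *Il33* ratio of 3.42 at a count of 3, and averaging the CPM of single cells gave a lineage median of 7.75. Without a filter on level the class II median was -4.49 and 4740 genes were higher. The share of cells with an *Il33* UMI was 0 under every alternative run. Leaving out melanoma cells under 10000 UMIs, or T cells with *Lyz2* or C1q UMIs, both chosen after seeing the data, kept every value within those limits. The class II median, whose interval is wide, was -5.73 without the latter T cells and -5.54 without a mitochondrial limit, against -6.68 as reported. No paired analysis was possible because each library is a single pool without replicates.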
